A study of Mus musculus with 6 samples.

Results

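Growth in 10% fetal bovine serum (FBS) was compared with 2 low-serum media in C2C12 cells, a mouse line of skeletal muscle precursors (myoblasts). The comparison used 3 of the 6 libraries of polyadenylated RNA in the series. These were the growth control in DMEM with 10% FBS, cells moved to DMEM with 2% horse serum (HS), and cells moved to DMEM with 0.2% FBS, all without added exosomes and with 1 library each. The other 3 libraries received exosomes purified from FBS as well, 1 in 2% HS and 2 in 0.2% FBS, and entered only as a measure of spread and for reference. The members were the 10675 of 20950 entries of the expression table whose mean over the 3 libraries was at least 1 FPKM (fragments per kilobase of transcript and per fixed number of mapped reads), a unit that corrects for gene length and depth. For each of them the difference in log2(FPKM + 1) from 10% FBS was taken in each low-serum library, together with the mean of both. With 1 library per medium no medium has a spread of its own, so no test is given here, and a gene was called higher or lower when its difference passed 1 in size, in the same direction, in each low-serum library. Both differences share the single 10% FBS library, so they are not independent of each other, and any oddity of that library enters both.

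The low-serum media differ from the control by more than the amount of serum. In 2% HS the species of the serum differs too, and the cells in either low-serum medium had been switched after they had come near to confluence, on a day the labels do not give. Medium, cell density and time in culture therefore cannot be told apart. C2C12 is an established line, and no donor, animal or separate culture is named for any library.

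When serum mitogens are withdrawn, myoblasts leave the cell cycle and fuse into multinucleated myotubes that build sarcomeres, the repeating units of thick myosin and thin actin filaments that shorten in contraction. The step is driven by basic helix-loop-helix factors such as MyoD and myogenin, which bind E-boxes in muscle promoters with MEF2, TEAD and SRF beside them. Id proteins and Notch signalling hold these factors back, while mitogens keep the cells cycling and switch on the immediate-early genes within minutes.

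The 6 promoters below show where letters known to be recognised by such factors lie in genes on which the results turn, namely sarcomere genes, a receptor subunit of the nerve-muscle synapse, a serum-response gene and a mitotic kinase. Each is the stretch just before the RefSeq transcription start (first listed start of the gene, GRCm38.p6), read 5′ to 3′ on the gene's strand, with the motif matches in capitals. Myh4 is at chr11:67237572-67237811 on the plus strand, Acta1 at chr8:123894776-123895005 on the minus strand, Mybph at chr1:134193328-134193447 on the plus strand, Chrng at chr1:87205641-87205810 on the plus strand, Zfp36 at chr7:28379229-28379328 on the minus strand and Cdk1 at chr10:69352913-69353012 on the minus strand.
Myh4: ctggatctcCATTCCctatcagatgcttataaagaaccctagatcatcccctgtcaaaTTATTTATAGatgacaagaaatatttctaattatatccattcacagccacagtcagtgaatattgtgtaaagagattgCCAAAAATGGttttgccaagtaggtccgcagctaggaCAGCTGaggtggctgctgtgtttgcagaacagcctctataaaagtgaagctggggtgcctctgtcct
Acta1: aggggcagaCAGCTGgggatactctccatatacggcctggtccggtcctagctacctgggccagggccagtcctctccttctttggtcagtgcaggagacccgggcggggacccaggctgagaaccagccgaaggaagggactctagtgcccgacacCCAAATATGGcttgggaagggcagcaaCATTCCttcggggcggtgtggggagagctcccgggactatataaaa
Mybph: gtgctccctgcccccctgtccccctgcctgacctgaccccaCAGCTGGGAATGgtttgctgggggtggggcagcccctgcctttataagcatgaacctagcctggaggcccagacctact
Chrng: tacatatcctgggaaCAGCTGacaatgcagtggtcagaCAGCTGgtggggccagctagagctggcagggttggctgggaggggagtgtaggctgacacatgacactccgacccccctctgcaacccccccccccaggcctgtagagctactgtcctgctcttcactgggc
Zfp36: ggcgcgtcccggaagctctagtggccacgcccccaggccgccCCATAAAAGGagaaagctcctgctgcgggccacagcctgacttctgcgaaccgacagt
Cdk1: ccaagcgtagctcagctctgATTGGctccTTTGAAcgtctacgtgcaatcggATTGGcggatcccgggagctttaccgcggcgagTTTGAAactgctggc

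Motifs were searched on both strands in the 250 bases before the start. CAGCTG is the E-box preferred by MyoD and myogenin, CATTCC the MCAT box of TEAD factors, TTTGAA the CHR element of mitotic genes and CCAAT the box bound by NF-Y. The MEF2 site, the CArG box of SRF and the E2F site are given by name. Counting back from the start, Myh4 held a CAGCTG at -67, a CArG box at -104, a MEF2 site at -182 and an MCAT box at -231. Acta1 held an MCAT box at -46, a CArG box at -73 and a CAGCTG at -221. In Mybph the E-box at -79 abutted an MCAT box at -73 read on the other strand, and Chrng held E-boxes at -155 and -132. Zfp36 held a CArG box at -58, and Cdk1 held CHR elements at -71 and -15 with CCAAT boxes at -80 and -48 read on the other strand and a CCAAT box at -208, outside the stretch printed. A match is a description of these letters and not evidence of binding.

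Over all 8180 members with a promoter, 11.7% held a CAGCTG, 10.5% an MCAT box, 1.59% a MEF2 site and 1.22% a CArG box. Of the 73 called-higher genes with a promoter, 25 held a CAGCTG (34.2%), 18 an MCAT box (24.7%) and 6 a MEF2 site (8.22%). The 43 sarcomere genes with a promoter held these motifs in 14, 13 and 7 cases, and a CArG box in 5 (11.6%). The CArG box was in 2 of 73 called-higher promoters (2.74%) and in 2 of 22 called-lower ones (9.09%), and the MEF2 site was in 3 of 16 immediate-early promoters (18.8%). CAGCTG was nearly as common in the called-lower genes, at 7 of 22 (31.8%), so the share of that E-box did not separate the directions. In the same 22 promoters the MCAT box was found in 4 (18.2%) and the MEF2 site in 0. Another E-box searched for, of the CACCTG kind, was held by 13.5% of all members with a promoter. It was in 13 of the 73 called-higher promoters (17.8%), 10 of the 43 sarcomere ones (23.3%) and 2 of the 22 called-lower ones (9.09%). In the 34 promoters of mitotic genes, CHR was found in 10 (29.4%, against 10.0% over all members) and CCAAT in 25 (73.5%, against 37.1%). In the 35 promoters of DNA replication genes, the E2F site was found in 7, against 3.66% over all members. These shares are given without a test.

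The libraries were alike in depth. The table lists 10720, 10651 and 10613 genes at 1 FPKM or more in 10% FBS, 2% HS and 0.2% FBS, and read numbers estimated from the smallest FPKM steps were between 33800000 and 39400000 over the 6 libraries. The median size of the difference between the 2 libraries of 0.2% FBS + exosome, the only replicates in the series, was 0.15 over all members, and 0.562% of members lay more than 1 apart. The 2% HS and 0.2% FBS libraries lay closer, with a median size of 0.11, whereas each lay further from 10% FBS, with 0.23 for both media. Replicate 2 of 0.2% FBS + exosome was above replicate 1 in 26 of the 28 called-lower genes and in 5 of the 109 called-higher genes, against 63.5% of all members. The spread of the called genes in that pair was thus wider than that of most genes, at a median size of 0.50 for the called-higher and 0.75 for the called-lower genes, and whether the conditions compared here vary as much was not tested.

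The library labelled as growing already held transcripts of differentiating muscle. Myog, the gene of myogenin, was at 512 FPKM in 10% FBS, and Myh3, the embryonic myosin heavy chain, was at 738 FPKM. Pax7, a marker of quiescent and early muscle precursors, was at 0.53 FPKM. The differences below are therefore between a culture with muscle transcripts and cultures with more of them. In bulk RNA, fewer cells of a type and less RNA per cell cannot be told apart.

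In total 109 genes were higher in both low-serum libraries (1.02% of the members) and 28 were lower in both (0.262%). Small differences leaned the other way. The mean difference was above 0 in 39.2% of members and below 0 in 60.8%, and its median over all members was -0.08. That lean depends in part on the scaling, since with each library scaled to the same 75th percentile 45.7% were above 0 and the median was -0.04. Of the 109 higher genes, 105 were at 1 FPKM or more in 10% FBS and 18 were at 100 FPKM or more, and the median of their mean differences was 1.32. Few differences were large, with 6 called-higher genes and 6 called-lower genes past a mean of 2 in size. A difference above 1 was met only in 2% HS by 83 genes and only in 0.2% FBS by 84, and 1 gene, Dhrs3, passed the threshold in opposite directions.

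**Figure D1:**
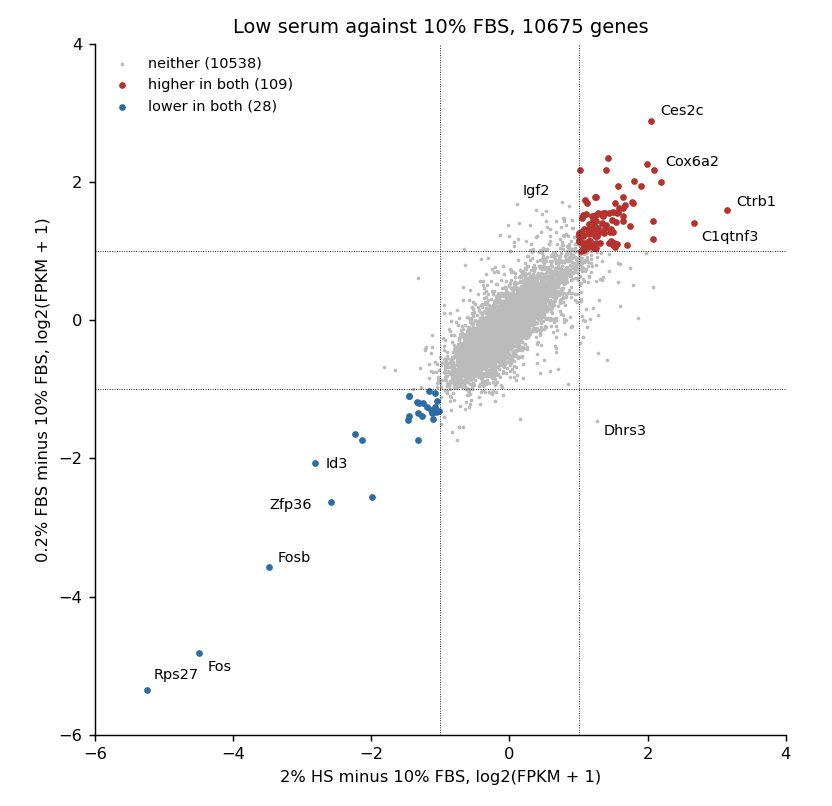
Each point is 1 of 10675 genes, with the log2(FPKM + 1) difference of the 2% HS library from 10% FBS on the x axis and that of the 0.2% FBS library on the y axis, and dotted lines at 1 and -1. The 109 genes in red are past 1 on both axes and the 28 in blue are past -1 on both, and since the axes share the 10% FBS library, part of the diagonal shape comes from that library alone.

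Genes were grouped into lists by function. The lists of sarcomere proteins stood highest, with medians near 1, and the lists of inhibitors of myogenic factors and of Notch genes stood lowest, at -0.69 and -0.66. Of the 109 higher genes, 39 were among the 164 members of 11 muscle lists (23.8% of those members, against the 1.02% of all genes). None of the 164 was lower in both, which with 0.262% of all members called lower is no result about these lists. The mean difference was above 0 in 134 of the 164, against 39.2% of all members.

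**Figure D2:**
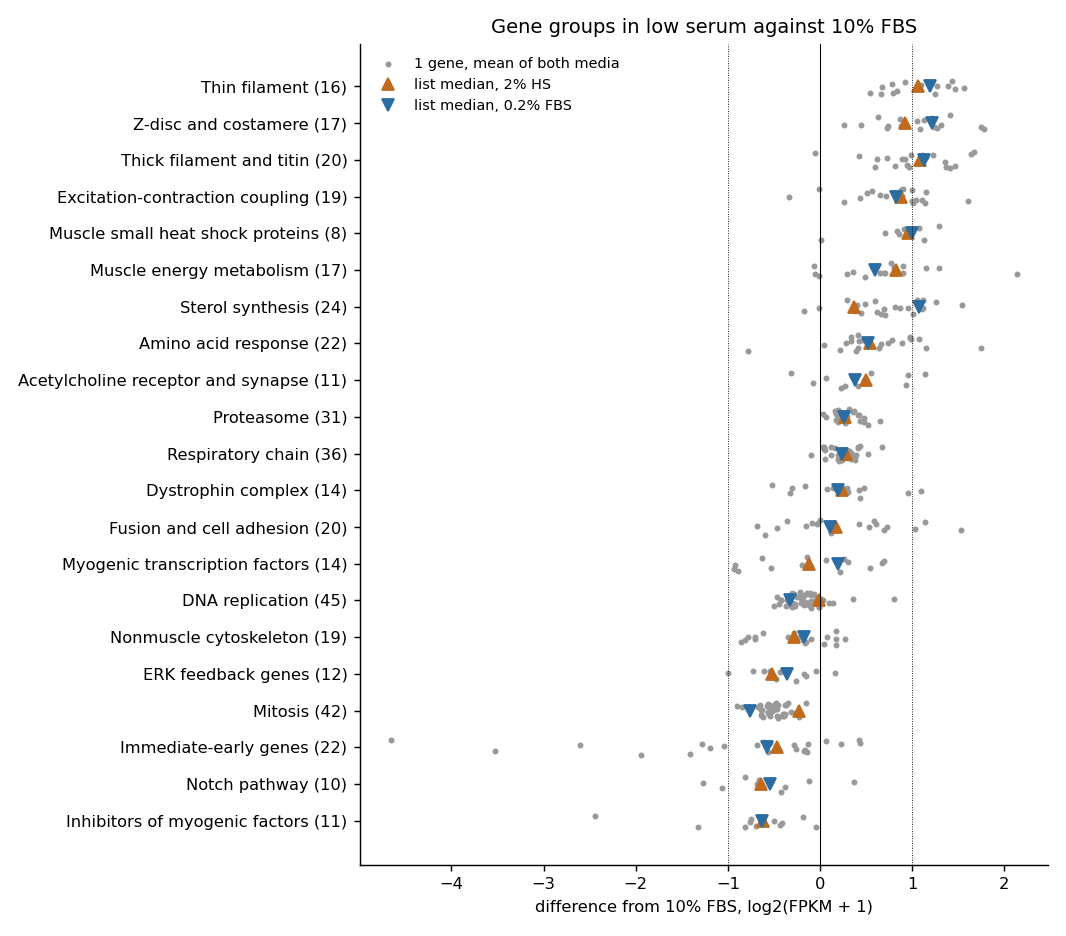
Rows are gene lists with the number of members in brackets, grey points are single genes by their mean log2(FPKM + 1) difference from 10% FBS, and triangles are the list medians in 2% HS (pointing up) and in 0.2% FBS (pointing down). The 3 sarcomere lists have medians near 1 in both media, sterol synthesis and mitosis have medians that lie apart between the media, and the immediate-early genes have the longest tail below 0.

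The sarcomere genes were the largest group. Of 59 genes of the thick filament, the thin filament and the Z-disc, 53 were members, and 24 were called higher (45.3%, against 1.02% of all members). None was called lower, which is near the 0.262% of all members. A mean difference above 0 was found in 52 of the 53, against 39.2% of all members. Their median difference was 1.06 in 2% HS and 1.14 in 0.2% FBS, beside -0.08 and -0.09 over all members. Together the 59 genes made up 4.38% of all FPKM in 10% FBS, 9.50% in 2% HS and 9.81% in 0.2% FBS. Among the 50 most abundant genes of each library, 4 were sarcomere genes in 10% FBS, 14 in 2% HS and 13 in 0.2% FBS. The libraries with exosomes spread widely on this measure, at 9.56% in 2% HS and at 4.18% and 2.67% in the replicates in 0.2% FBS.

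Of the thick filament, Mylpf, the regulatory light chain of fast skeletal myosin, was at 3306 FPKM in 10% FBS, 7377 in 2% HS and 8128 in 0.2% FBS. It was the most abundant gene of the table in either low-serum library and ranked 6 in 10% FBS, with log2 differences of 1.16 and 1.30. The essential light chain Myl1 was at 1418, 3697 and 3593 FPKM, and Myl4, the embryonic and atrial chain, at 1009, 3150 and 3120 FPKM. Mybph, a myosin-binding protein of the A-band whose promoter is given above, was at 248 FPKM in 10% FBS, 794 in 2% HS and 789 in 0.2% FBS, with a mean log2 difference of 1.67. Both low-serum values of each of these genes stood at more than 2-fold the 10% FBS value, and they lay close to each other.

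The heavy chains differed by isoform. Myh3 was at 738 FPKM in 10% FBS, 1575 in 2% HS and 1604 in 0.2% FBS, which made it the most abundant skeletal heavy chain of those listed. The adult fast isoforms Myh1 and Myh4 were far lower, Myh1 at 12.2, 35.8 and 35.0 FPKM and Myh4 at 10.1, 23.2 and 35.0 FPKM in the same order, and both were called higher. Another pair passed the threshold in 0.2% FBS alone. Myh7, the slow isoform, was at 24.7, 25.9 and 55.3 FPKM, and Myh8, the perinatal isoform, was at 9.88, 13.2 and 31.8 FPKM. Of the M-band and elastic proteins, Myom2 (myomesin) was called higher at 97.9, 248 and 262 FPKM, while Ttn, the giant spring titin, had smaller log2 differences of 0.59 and 0.86.

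In the thin filament, Acta1, the skeletal actin, was at 2034 FPKM in 10% FBS, 4500 in 2% HS and 5322 in 0.2% FBS. Actc1, the cardiac actin that precedes it in developing muscle, was at 1311, 2320 and 3401 FPKM, and missed the call because its difference in 2% HS was 0.82. The troponins that make the filament sensitive to calcium were called for Tnnc1, Tnnc2, Tnni1, Tnni2 and Tnnt3, with Tnnc1 at 1448, 3771 and 4232 FPKM and Tnni2 at 511, 1308 and 1459 FPKM. The tropomyosins were not called. Tpm1 and Tpm2 had mean differences of 0.79 and 0.66, and Tpm3 was at 150, 322 and 150 FPKM, past the threshold in 2% HS only. Lmod2, a leiomodin that seeds actin filaments, was at 36.0, 108 and 108 FPKM.

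Of the Z-disc and costamere genes, the largest mean differences were those of a pair of signalling adaptors. Ankrd2, an ankyrin repeat protein that shuttles between Z-disc or I-band and nucleus, was at 49.7 FPKM in 10% FBS, 132 in 2% HS and 228 in 0.2% FBS. Its replicates in 0.2% FBS + exosome were at 51.4 and 14.3 FPKM, a log2 gap of 1.77 that is about the size of its mean difference of 1.78. Csrp3, the muscle LIM protein, was at 12.5, 45.3 and 43.4 FPKM. Tcap, which caps titin at the Z-disc, was at 5.30, 15.3 and 14.2 FPKM, and Xirp1 was at 12.1, 26.8 and 42.7 FPKM. Des, the muscle intermediate filament desmin, was abundant in all 3 libraries at 630, 1061 and 1043 FPKM and was not called, with a mean difference of 0.74. The lowest mean difference of the list was 0.26, so every member of it stood above 0, against 39.2% of all members.

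**Figure D3:**
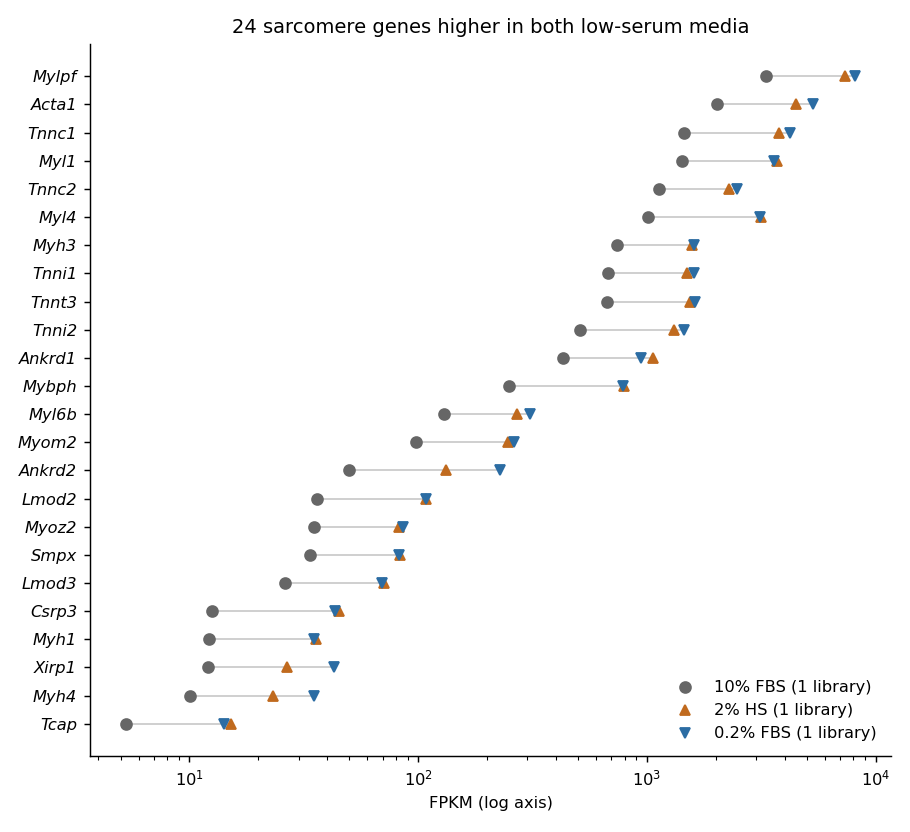
The 24 sarcomere genes called higher in both media are ordered by their FPKM (log axis) in 10% FBS, with a grey circle for 10% FBS, a triangle pointing up for 2% HS and a triangle pointing down for 0.2% FBS, 1 library each. Both low-serum values of a gene lie to the right of its 10% FBS value, which follows from showing called genes only. The levels in 10% FBS run from Tcap at 5.30 FPKM to Mylpf at 3306 FPKM.

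Beyond the sarcomere, the genes of fusion and of the muscle membrane differed unevenly. Tmem8c encodes myomaker, the membrane protein required for myoblast fusion, and was at 349 FPKM in 10% FBS, 987 in 2% HS and 1036 in 0.2% FBS. Its partner Gm7325 (myomixer) was at 145, 279 and 313 FPKM and missed the call, with differences of 0.94 and 1.11. Ncam1, a cell adhesion molecule of myotubes, was called at 80.5, 189 and 167 FPKM, while Cdh15, the M-cadherin of myoblasts and myotubes, had differences of 0.06 and -0.23. Of 20 members of the fusion and adhesion list, 2 were called and 12 had a mean above 0, against 1.02% and 39.2% of all members.

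Excitation-contraction coupling links the action potential to calcium release. Of its 19 members 4 were called higher and 17 had a mean above 0 (1.02% and 39.2% of all members), with a median of 0.89. Casq2, the calsequestrin that stores calcium in the sarcoplasmic reticulum, was at 180, 543 and 556 FPKM, and the calcium channel subunits Cacna1s and Cacng1 were called as well, at 19.9, 45.5 and 44.9 FPKM and at 222, 494 and 486 FPKM. Ryr1, the calcium release channel itself, had smaller differences of 0.35 and 0.53. Atp2a1, the calcium pump of fast muscle, lay just outside the call at 222, 473 and 444 FPKM, where the difference in 0.2% FBS fell short of 1 by under 0.001.

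At the nerve-muscle synapse, the receptor subunits formed a series. Chrng, the fetal gamma subunit of the acetylcholine receptor, was at 171, 378 and 377 FPKM and was the 1 called gene of 11 members, beside 1.02% of all members. Chrna1, Chrnd and Chrnb1 had smaller mean differences of 0.93, 0.56 and 0.48, and Musk, the receptor kinase that clusters them, had 0.23. Chrne, the adult subunit, did not reach the filter and was highest in 2% HS at 0.83 FPKM.

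Metabolic genes of muscle mostly had a mean above 0. Of 17 members of the list 3 were called and 14 had a mean above 0 (1.02% and 39.2% of all members), with a median of 0.71. Cox6a2, the heart and muscle subunit of cytochrome c oxidase (chr7:128205435-128206387, minus strand, mm10), was at 33.2 FPKM in 10% FBS, 146 in 2% HS and 154 in 0.2% FBS, ratios of 4.38 and 4.64. Cox8b, another muscle subunit of that enzyme, was at 45.0, 132 and 94.8 FPKM. Ckm, muscle creatine kinase, was at 356, 847 and 734 FPKM. Mb (myoglobin) passed the threshold in 2% HS alone, at 95.4, 222 and 108 FPKM. The general respiratory chain leaned the same way by little, with 35 of 36 members above 0 and a median of 0.27, beside the 39.2% of all members. None was called, which with 1.02% of all members called higher is no result about the list.

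Many of these genes have a sister gene used in other tissues, and 24 such pairs were compared as the share of the muscle gene in the FPKM of the pair. The muscle share was higher than in 10% FBS in 22 pairs in 2% HS and in 23 pairs in 0.2% FBS. It was above 50% in 10 pairs in 10% FBS and in 14 in either low-serum library. Cox6a2 against Cox6a1 held 10.0% in 10% FBS, 32.7% in 2% HS and 33.0% in 0.2% FBS, and Cav3, the muscle caveolin, passed Cav1 with shares of 31.0%, 61.0% and 64.2%. Murc, a muscle cavin, went past its general counterpart Ptrf with 30.1%, 54.7% and 54.3%. Acta1 against Actb held 72.3%, 86.8% and 88.1%, and Des against Vim held 29.3%, 46.7% and 42.9%. Of the 24 muscle genes 9 were called higher, and none of their sisters was called, beside 1.02% of all members. The share was not higher in both media for the splicing factors Ptbp2 and Ptbp1, at 22.6%, 22.5% and 21.0%. The same held for the glucose transporters Slc2a4 and Slc2a1, at 3.17%, 2.59% and 3.62%. Ptbp2 was set as the muscle gene of its pair by assignment, and whether it is specific to muscle was not tested.

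**Figure D4:**
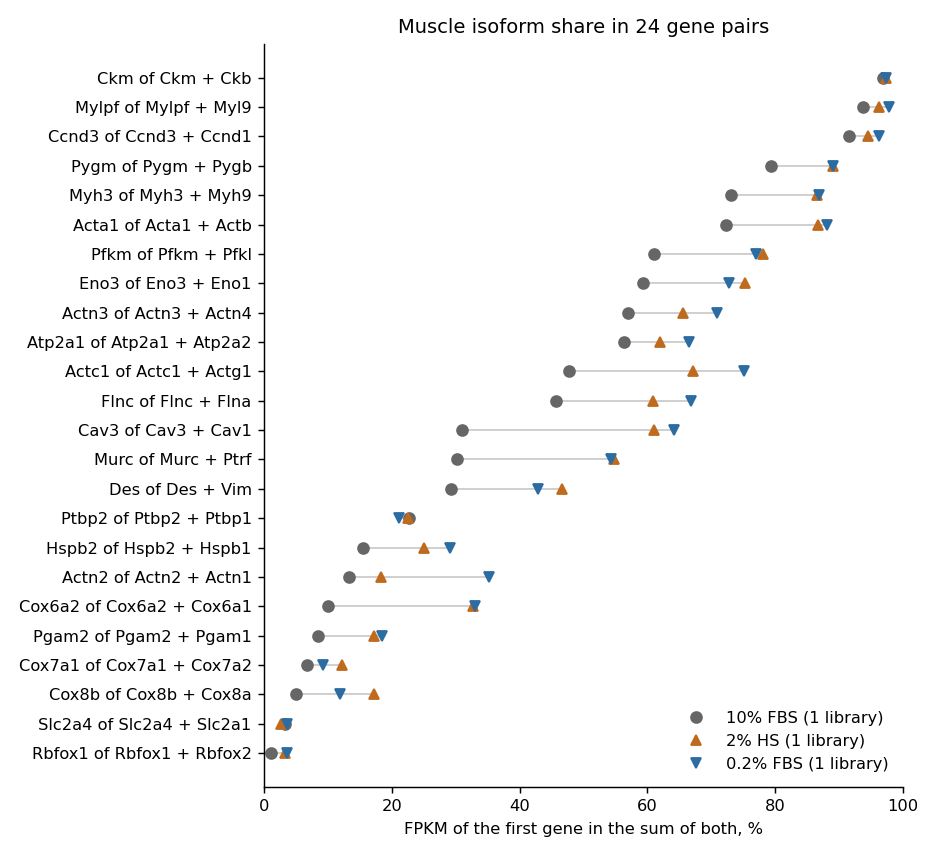
Each row gives the share (%) of a muscle gene in the summed FPKM of itself and its sister gene, with a grey circle for 10% FBS, a triangle pointing up for 2% HS and a triangle pointing down for 0.2% FBS, 1 library each. In 22 of 24 rows both triangles lie to the right of the circle, and the widest steps are those of Cav3, Actc1, Murc and Cox6a2.

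The transcription factors that drive these genes were not called and differed in direction. Of 14 members of the myogenic factor list 7 had a mean above 0, near the 39.2% of all members, and with 1.02% of all members called higher, none of 14 is no result about the list. Myog was at 512 FPKM in 10% FBS, 564 in 2% HS and 663 in 0.2% FBS, and Myod1 was at 83.7, 97.2 and 110 FPKM. Their log2 differences of 0.14 and 0.37 for Myog and 0.21 and 0.40 for Myod1 lie below the 95th percentile of 0.50 of the exosome replicate pair. Tead4 and Mef2c, which act on the same promoters, had mean differences of 0.69 and 0.67. On the other side lay Myf5, the factor of proliferating myoblasts, at 12.2, 6.50 and 5.39 FPKM. The E-proteins that pair with MyoD had means below 0 as well, Tcf3 with -0.63 and Tcf12 with -0.53.

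Genes that restrain the myogenic factors had means below 0. All 11 members of the inhibitor list had a mean below 0 (60.8% of all members did), their median was -0.69, and 2 were called lower (0.262% of all members were). Id3, which sequesters E-proteins (chr4:136143497-136145755, plus strand), was at 65.9 FPKM in 10% FBS, 8.50 in 2% HS and 15 in 0.2% FBS, a mean log2 difference of -2.44. Hey1, a repressor induced by Notch, was at 2.84, 0.54 and 0.51 FPKM, and Id1 was at 27.5, 14.7 and 15.7 FPKM. In the libraries with exosomes in 0.2% FBS, Id3 was at 37.9 and 123 FPKM, so its replicates lay more than 3-fold apart.

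Of the Notch pathway, 9 of 10 members had a mean below 0 (60.8% of all members did), 2 were called lower (0.262% of all members) and the median was -0.66. The receptor gene Notch3 was at 38.0, 14.4 and 16.1 FPKM, and the ligand gene Dll1 was at 12.7, 5.52 and 5.59 FPKM, and both were called lower. Jag2, another ligand, had differences of -0.997 and -0.642, and Notch1 and Notch2 had means of -0.69 and -0.66. Hes6, which counters Hes1, was the member above 0, with differences of 0.51 and 0.22.

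Cell cycle genes lay mostly below 0, and mitotic genes further in 0.2% FBS. All 42 genes of mitosis had a mean below 0 and none was called (60.8% and 0.262% of all members), with a median of -0.23 in 2% HS and -0.77 in 0.2% FBS. In 0.2% FBS 6 of them were below -1, while 73 of all 10675 members were. Ube2c, which loads the anaphase-promoting complex, was at 25.2 FPKM in 10% FBS, 16.6 in 2% HS and 10.3 in 0.2% FBS. Cdk1, the mitotic kinase, was at 13.5, 11.4 and 7.44 FPKM, and Mki67, the proliferation antigen, was at 10.6, 8.13 and 5.58 FPKM. The 0.2% FBS value was the lowest of the 3 for each of them. Of 45 DNA replication genes 39 had a mean below 0, beside the same 60.8%, but the median was only -0.17, with -0.01 in 2% HS. Rrm2, a subunit of the reductase that makes deoxynucleotides, stood out on the high side at 30.4, 56.8 and 50.5 FPKM, and Rrm1, its partner, had differences of 0.46 and 0.27.

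Among regulators of the cycle, Cdkn1a, the inhibitor that MyoD induces as myoblasts leave the cycle, was at 536 FPKM in 10% FBS, 1001 in 2% HS and 1009 in 0.2% FBS, short of the call with differences of 0.90 and 0.91. Cdk4 was at 207, 135 and 126 FPKM. Its partners differed in direction, Ccnd1 at 11.6, 8.61 and 6.96 FPKM and Ccnd3, the D cyclin kept in myotubes, at 125, 150 and 178 FPKM. Cdkn1c was low throughout at 0.54, 1.24 and 2.94 FPKM.

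Genes that serum itself induces had some of the largest negative differences. Of 22 immediate-early genes 7 were called lower (31.8%, against 0.262% of all members) and 18 had a mean below 0 (60.8% of all members did). Fos (chr12:85473890-85477273, plus strand), a subunit of the AP-1 dimer, was at 113 FPKM in 10% FBS, 4.04 in 2% HS and 3.04 in 0.2% FBS, log2 differences of -4.49 and -4.81. Fosb (chr7:19302696-19310051, minus strand) was at 18.4, 0.73 and 0.64 FPKM. Zfp36 (chr7:28376784-28380253, minus strand), an RNA-binding protein that destabilises AU-rich transcripts and whose promoter above holds a CArG box, was at 75.1, 11.7 and 11.3 FPKM. Both low-serum values of each lay far under the 10% FBS value and close to each other.

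Egr1, a zinc finger factor, was at 143 FPKM in 10% FBS, 29.6 in 2% HS and 44.7 in 0.2% FBS. Ier2 was at 58.6, 20.9 and 21.9 FPKM, and Junb was at 102, 48.4 and 39.9 FPKM. Jun lay just short of the call with -0.99 in 2% HS and -1.11 in 0.2% FBS. Some members differed little, with Myc at 15.2, 13.1 and 14.4 FPKM and Nr4a1 at 9.17, 7.66 and 8.88 FPKM. Of 12 feedback genes of the ERK pathway, which carries growth factor signals, 11 had a mean below 0 (60.8% of all members did). None was called, which with 0.262% of all members called lower is no result about the list. Dusp6, an ERK phosphatase, was nearest to the call at 17.0, 7.05 and 9.10 FPKM. Socs3, the feedback inhibitor of cytokine receptors, was called at 70.1, 17.0 and 11.1 FPKM.

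Several of these genes also lay far apart between replicates. In the pair of 0.2% FBS + exosome libraries, Fos was at 8.03 and 100.2 FPKM, Fosb at 1.47 and 15.2 FPKM and Zfp36 at 13.96 and 47.0 FPKM. Replicate 2 was above replicate 1 in 16 of the 22 immediate-early genes, near the 63.5% of all members, with a median of 0.70 against 0.07. Its values of Fos, Ier2 (61.3 FPKM) and Junb (106 FPKM) were near those of the 10% FBS library, and what set them was not tested. The gap between low serum and 10% FBS in Fos was 4.49 or more, above the 3.49 between those replicates, whereas for Ier2 and Junb the gap between replicates, 1.62 and 1.33, was of the size of the serum difference.

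**Figure D5:**
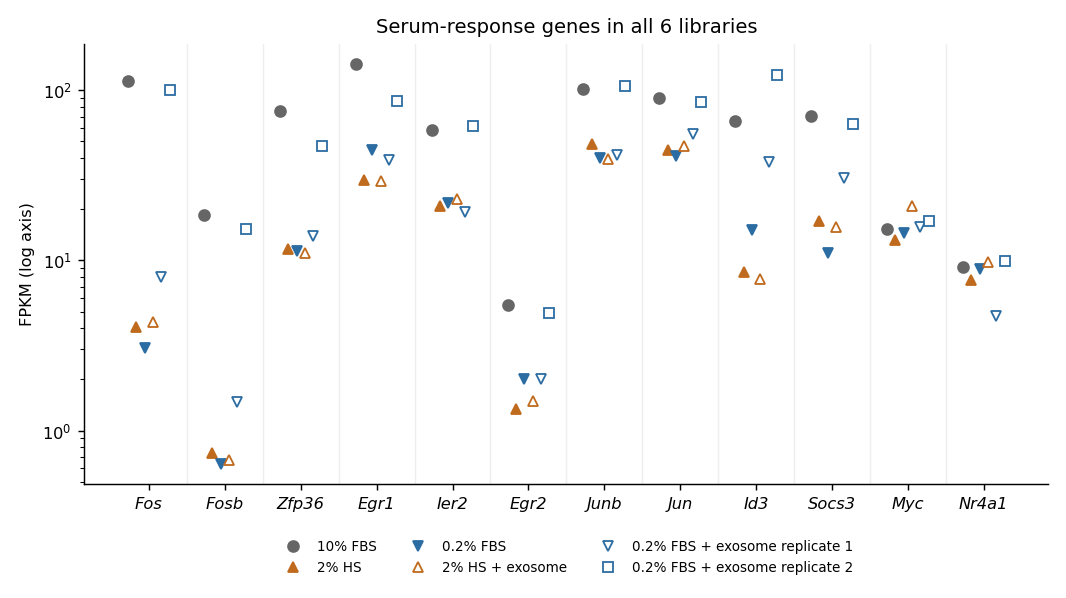
FPKM (log axis) of 12 serum-response genes in all 6 libraries, with filled symbols for the 3 libraries compared (grey circle 10% FBS, triangle up 2% HS, triangle down 0.2% FBS) and open symbols for those with exosomes. Fos is at 113, 4.04 and 3.04 FPKM in the filled symbols, while the open square, replicate 2 of 0.2% FBS + exosome, lies near the grey circle at 100.2 FPKM, and the filled symbols of Myc and of Nr4a1 lie close together.

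The largest difference of all belonged to Rps27, a protein of the small ribosomal subunit (chr3:90212522-90213651, minus strand), chosen for description after its values were seen. It was at 62.5 FPKM in 10% FBS, 0.67 in 2% HS and 0.56 in 0.2% FBS. In the libraries with exosomes it was at 1.05, 0.44 and 0.71 FPKM, so the 10% FBS library stood alone. The other 74 ribosomal protein genes had mean differences between -0.91 and 0.31 with a median of -0.31, and the lowest value of any of them was 20.8 FPKM. Near-identical processed copies are known for many ribosomal protein genes, and how reads were shared among them was not given in the sources used here.

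Sterol and amino acid genes lay mostly above 0. Of 24 members of sterol synthesis 22 had a mean above 0 (39.2% of all members did) and 1 was called (1.02% of all members were). The media differed in size, with a median of 0.37 in 2% HS and 1.08 in 0.2% FBS. A difference above 1 was met by 1 gene in 2% HS and by 13 in 0.2% FBS, while over all 10675 members it was met by 192 and 193. Sterol genes also lay far apart between the replicates of 0.2% FBS + exosome, with -1.23 for Msmo1, -1.08 for Cyp51 and -0.86 for Hmgcs1, as large as the gap between the media. Hmgcs1, which makes the substrate of the rate-limiting reductase, was at 47.1, 56.0 and 105 FPKM. Ebp, a sterol isomerase, was the called gene at 18.1, 58.7 and 50.6 FPKM.

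Of the 22 members of the amino acid response, the targets of ATF4, 21 had a mean above 0 with a median of 0.55, and 3 were called, against 39.2% and 1.02% of all members. Fgf21, a secreted hormone, was at 38.7, 137 and 127 FPKM, Mthfd2, a mitochondrial folate enzyme, at 30.2, 65.0 and 64.3 FPKM and Gdf15, a stress cytokine, at 4.45, 11.1 and 11.1 FPKM. Asns, asparagine synthetase, lay near the threshold at 62.2, 121 and 126 FPKM. All 31 proteasome members had a mean above 0, beside 39.2% of all members, with a median of 0.27. The endoplasmic reticulum chaperones had a mean above 0 in 14 of 16, beside the same 39.2%. Their median of 0.34 is smaller in size than the replicate differences of Hspa5 (-1.23) and Herpud1 (-1.06) in 0.2% FBS + exosome. No member of either list was called, which with 1.02% of all members called higher is no result about these lists.

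Genes of growth factors and their binding proteins differed in direction. Igf2, the growth factor made by differentiating myoblasts, was at 67.6 FPKM in 10% FBS, 116 in 2% HS and 224 in 0.2% FBS. Igfbp5, its most abundant binding protein here, was at 1747, 976 and 571 FPKM, and Igfbp2 was called lower at 26.4, 8.92 and 9.08 FPKM. Fst, follistatin, which binds myostatin and activins, was called higher at 8.04, 23.5 and 18.7 FPKM. Of 20 matrix protein genes other than collagens, 16 had a mean above 0 (39.2% of all members did) and 1 was called higher (1.02% of all members were). The called gene was Lum, the proteoglycan lumican, at 0.65, 4.34 and 2.53 FPKM. Among the chemokines, Cxcl1 was called lower at 20.5, 3.93 and 5.46 FPKM, while Ccl2 and Ccl7 had mean differences above 0. The atrophy ligases differed in direction, Fbxo32 at 45.3, 23.6 and 24.5 FPKM and Trim63 at 14.4, 31.5 and 27.0 FPKM. Of 19 genes of the nonmuscle cytoskeleton 13 had a mean below 0, near the 60.8% of all members, among them Tagln2 with -0.86 and Tpm4 with -0.70.

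Of the 109 higher genes, 45 were in some list by function and the rest in none of these. Lists of cell type markers and of genes the study measured by RT-qPCR were left out of this count. Ces2c, a carboxylesterase (chr8:104847068-104854483, plus strand), had the largest mean difference, 2.47, at 2.51 FPKM in 10% FBS, 13.5 in 2% HS and 25.0 in 0.2% FBS. Ctrb1, a chymotrypsinogen (chr8:111686519-111691010, minus strand), was at 6.62, 66.7 and 22.1 FPKM, and C1qtnf3, a secreted protein of the C1q and TNF family, was at 68.6, 444 and 183 FPKM. Both were called in each medium and were higher in 2% HS than in 0.2% FBS by more than 1 on the log2 scale.

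The sugar transporter gene Slc2a6 was at 8.56, 34.9 and 35.9 FPKM. Hsd11b1, which regenerates active glucocorticoid, was at 1.26, 5.06 and 10.6 FPKM. Msln (mesothelin) was at 28.9, 126 and 80.1 FPKM, R3hdml at 14.5, 69.9 and 61.5 FPKM and Angpt4, an angiopoietin, at 5.04, 20.2 and 23.3 FPKM. At these levels every value stood well over the 0.08 FPKM that 3 reads would give on a transcript of 1 kb. Of the other called-lower genes, Sox4, a factor of progenitor cells, was at 46.7, 21.7 and 18.97 FPKM and Ets2, a target of ERK, at 56.0, 22.9 and 23.9 FPKM.

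The media themselves lay more than 1 apart in 56 members (0.525%), beside 0.562% for the replicates of 0.2% FBS + exosome. Dhrs3, a retinal reductase (chr4:144892827-144928209, plus strand), was at 8.64 FPKM in 10% FBS, 22.1 in 2% HS and 2.52 in 0.2% FBS. Lpl, lipoprotein lipase, passed the threshold in 0.2% FBS alone at 30.2, 32.6 and 99.1 FPKM, and Myl2, the slow and cardiac regulatory light chain, in 2% HS alone at 0.47, 4.35 and 0.50 FPKM. Dbh was past the threshold, on the lower side, in 2% HS alone, at 2.77, 0.51 and 4.78 FPKM. Serpinb9g was at 0.72, 6.24 and 1.40 FPKM and F11r at 1.51, 5.66 and 0.69 FPKM, and both passed the threshold in 2% HS alone, with 0.48 for Serpinb9g in 0.2% FBS. Each of these rests on 1 library a medium, and the exosome libraries give an indirect look at Dhrs3. It was at 20.6 FPKM in 2% HS + exosome and at 5.80 and 13.6 FPKM in 0.2% FBS + exosome.

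At the edge of the call, Cyp2b13 lay just inside with differences of 1.04 and 1.00 and Cacng6 with 1.00 and 1.21. Il12a lay just outside with 1.19 in 2% HS and 0.998 in 0.2% FBS. On the lower side Pitx3 lay inside at -1.16 and -1.02, and Sox8 and Ralb lay outside, Sox8 with -1.39 and -0.99 and Ralb with -0.99 and -1.50.

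Markers of other cell types were mostly low, except those of fibroblasts and, at up to 6.53 FPKM, those of bone and cartilage. The highest value in the 3 libraries was 0.11 FPKM among 4 endothelial markers, 0.17 FPKM among 4 neural markers and 0.04 FPKM among 2 epithelial markers. Of 5 macrophage markers, Cd68 passed the filter and Ptprc was at 0, and of 4 adipocyte markers only Lep passed, at no more than 1.62 FPKM. Fibroblast markers were mixed, with Thy1 at 0 and Ly6a at 27.0, 41.2 and 15.9 FPKM, and the sum of the 4 was 60.7, 67.1 and 45.7 FPKM. Of 5 bone and cartilage markers, Runx2 and Sox9 passed, both with a mean below 0. Outside that list, the osteocalcin gene Bglap2 was called higher at 1.22, 5.15 and 3.91 FPKM. Its replicates in 0.2% FBS + exosome lay far apart, at 0.84 and 5.25 FPKM.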

How the data were processed

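RNA of C2C12 cells was sequenced as single-end 75-base reads from stranded poly(A)-selected libraries (TruSeq), 1 per condition compared. The values are FPKM that the authors computed per gene with Cufflinks and deposited as 1 table. Per the submitters' processing notes, reads were trimmed with cutadapt 1.9.1 and aligned to mm10 with TopHat2 2.1.0. The labels name the miRNeasy kit and the study's methods the RNeasy kit for RNA. No column of unknown samples was found (0) and the table holds no comparison of the authors.

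Of the 20950 entries, 10 that repeated a name were dropped from the comparison, and 629 carry a suffix marking a duplicate. A pseudocount of 1 was added before the log, which understates differences of low genes. The calls use the size of the difference and no test, since each medium has 1 library. limma 3.58.1 (R 4.3.3), fitted to all 6 libraries with 1 residual degree of freedom that comes from the 2 libraries of 0.2% FBS + exosome, served as an alternative. Other alternatives were a pseudocount of 0.1, a floor of 1 FPKM, scaling to the 75th percentile, other filters and leaving out each low-serum library.

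Depth was estimated from the steps of FPKM at low values, of which between 70.2% and 72.1% lay within 0.1 of a whole read (20% would if spread evenly). Total counts are not given, so no counting interval is printed.

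Genes named were the 15 with the largest mean difference in each direction among those called, members of 50 lists and 24 gene pairs, and the 5 in each direction that passed in 1 medium and differed most between media. The members, lists and pairs were chosen with earlier results of these data known. Gene coordinates are from GENCODE vM21 (mm10). Promoters came from RefSeq GRCm38.p6 and matched 8180 of 10675 members by symbol. Tables were made with Python 3.11.15 and pandas 2.3.3. Most list genes are given only in counts, and some results are not reported here.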

Additional observations from a re-analysis of the deposited data

Results flagged for a closer look

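Dhrs3 differed in opposite directions in the 2 media. Its log2(FPKM + 1) difference from 10% FBS was 1.26 in 2% HS and -1.45 in 0.2% FBS, a gap of 2.72, and with 1 library per medium the gap was not tested.

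The medians of 2 gene lists also lay on opposite sides of 0 by a gap above 0.5. The 13 interferon-stimulated genes had a median of 0.37 in 2% HS and -0.25 in 0.2% FBS, a gap of 0.62. Bst2, a tethering protein for enveloped virions, was at 11.5 FPKM in 10% FBS, 36.2 in 2% HS and 17.4 in 0.2% FBS, above 10% FBS in both media. Isg15, a ubiquitin-like protein, was at 3.34, 7.80 and 2.44 FPKM, on opposite sides of 10% FBS. The 14 collagens had a median of -0.41 in 2% HS and 0.19 in 0.2% FBS, a gap of -0.60. Col1a1, a chain of fibrillar collagen, was at 59.5, 49.0 and 88.4 FPKM, and Col6a2 was at 57.1, 42.2 and 85.6 FPKM. Both gaps between media were not tested. Each medium has 1 library, and the serum in 2% HS is from another species than that in 0.2% FBS.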

How the results depend on the processing

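No paired analysis was possible because each condition compared has 1 library, and the shared number 1 pairs nothing. The 109 higher genes became 167 with a pseudocount of 0.1, and the 28 lower genes became 52. With values under 1 FPKM raised to 1 and no pseudocount, 154 were higher and 54 lower. Without the 0.2% FBS library, 2% HS alone gave 192 and 56, and without the 2% HS library, 0.2% FBS alone gave 193 and 73. By construction a smaller pseudocount or fewer libraries can only add genes, so these counts say nothing of stability. Scaling to the 75th percentile moved the median over genes by 0.05 and gave 133 and 26. A filter over all 6 libraries left the counts as they were, and no filter gave 110 and 28. limma over all 6 libraries takes its spread from the pair of 0.2% FBS + exosome libraries alone (1 residual degree of freedom) and assumes that the single libraries vary likewise. It called 147 higher and 57 lower at an adjusted p under 0.05, and shared 67 of the 109 and 13 of the 28. Of 47 list medians, 42 kept their sign under another pseudocount, floor and scaling. The other 5 were near 0 (myogenic factors, ribosome biogenesis, TGF-beta, lysosome and muscle splicing regulators). The medians of 8 lists had opposite signs in the 2 media. The cause of these changes was not tested. The single 10% FBS library cannot be left out, and the spread it carries is unknown.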
